A study of Mus musculus with 4 samples.

Results

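The genes described here are 37 markers of macrophages, components of complement and genes of MHC class II antigen presentation, followed in ventricular RNA from mice at 6 months of age. They were chosen by name, with earlier results of these data known. A gene was included when the platform annotation gave it a probe set with exactly 1 gene symbol, and where a gene had several such probe sets, the one with the highest mean signal over all arrays was taken. That left 35 genes, while C3 and C4b are not analysed here as single genes. The study compared 2 arrays from non-transgenic mice with 2 arrays from mice that overexpress serum response factor (SRF), a transcription factor of muscle and immediate early genes, moderately and only in the heart. No source used here gives the promoter that drives the transgene, the strain or the sex, and the level of SRF RNA was not analysed here. The labels do not say whether the arrays of a group come from separate animals. The spread behind each p-value is that between arrays of a group, and may be technical.

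Macrophages are the main resident immune cells of the heart. They take up dying cells and debris, depend on signals through the receptor for colony stimulating factor 1, and carry immunoglobulin Fc receptors and scavenger receptors on their surface. C1q, the molecule that starts the classical complement pathway, is built of the chains encoded by C1qa, C1qb and C1qc, and tissue macrophages are a major source of it. MHC class II molecules present peptides to helper T cells. The invariant chain Cd74 guides them through the cell, and H2-DM loads their peptides.

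Each array gives 1 signal per probe set in arbitrary units on a linear scale, so levels of different genes are not compared. Median signals lay between 49.1 and 54.0. Differences are given as log2 changes of signal + 9, transgenic minus non-transgenic, with the moderated standard error of limma, and fold changes are on the same scale, which understates changes at low signal. A gene was called when its Benjamini-Hochberg adjusted p was under 0.05 over all 7453 tested probe sets. The 40% of probe sets with the lowest mean over all arrays were not tested, and 11 of the 35 genes fell below this filter, which lay at a signal of about 30.0. None of the 24 tested genes had a mean below that level in either group. All 6 measured cardiomyocyte markers, including the myosin genes Myh6 and Myl2, were lower on both transgenic arrays. Of these 3 fell and 3 did not pass. Among all tested probe sets 28.1% were lower on both transgenic arrays, and 3.86% were called lower. The summed signals of the cardiomyocyte markers were 56512 to 56781 on the non-transgenic and 44401 to 46180 on the transgenic arrays.

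RNA for many of these genes was higher in transgenic ventricle. Of the 35 measured genes 9 rose: the class II genes Cd74 and H2-Aa, the complement genes C1qb, C1qc and Serping1, the macrophage genes Lyz2 and Cd14, and the leukocyte genes Cd52 and Tyrobp. The rises ran from 1.58-fold for Lyz2 to 2.02-fold for Serping1 (2 arrays a group). None fell, 15 were tested and did not pass, and 11 were below the filter. Among all tested probe sets 4.07% were called higher and 3.86% lower. In ventricular RNA, more cells of a type and more RNA per cell cannot be told apart.

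The median log2 change over the 35 genes was 0.52, against -0.01 over all tested probe sets. Because the genes were chosen with earlier results of these data known, this contrast and the counts called are descriptions, not independent support. Both transgenic arrays lay above both non-transgenic arrays for 24 of the 35 genes and below them for 3, while 8 overlapped. Over all 12422 probe sets these shares were 20.8% above and 29.0% below, and over the tested ones 27.8% and 28.1%. Of the 24 tested genes 15 were higher and 1 was lower at an unadjusted p under 0.05, which 24.2% of all tested probe sets reached. The number called rested on the variance model and on single arrays. It was 0 without a trend of variance on signal (18 genes with an unadjusted p under 0.05) and 0 in an ordinary two-sample test (8 genes). Without transgenic replicate 2 it was 5, and without any 1 of the other arrays it lay between 6 and 8. Over all tested probe sets the calls were 303 higher and 288 lower, and after centring each array on its median they were 397 and 197, with 11 of the 35 genes called higher and 0 lower.

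**Figure D1:**
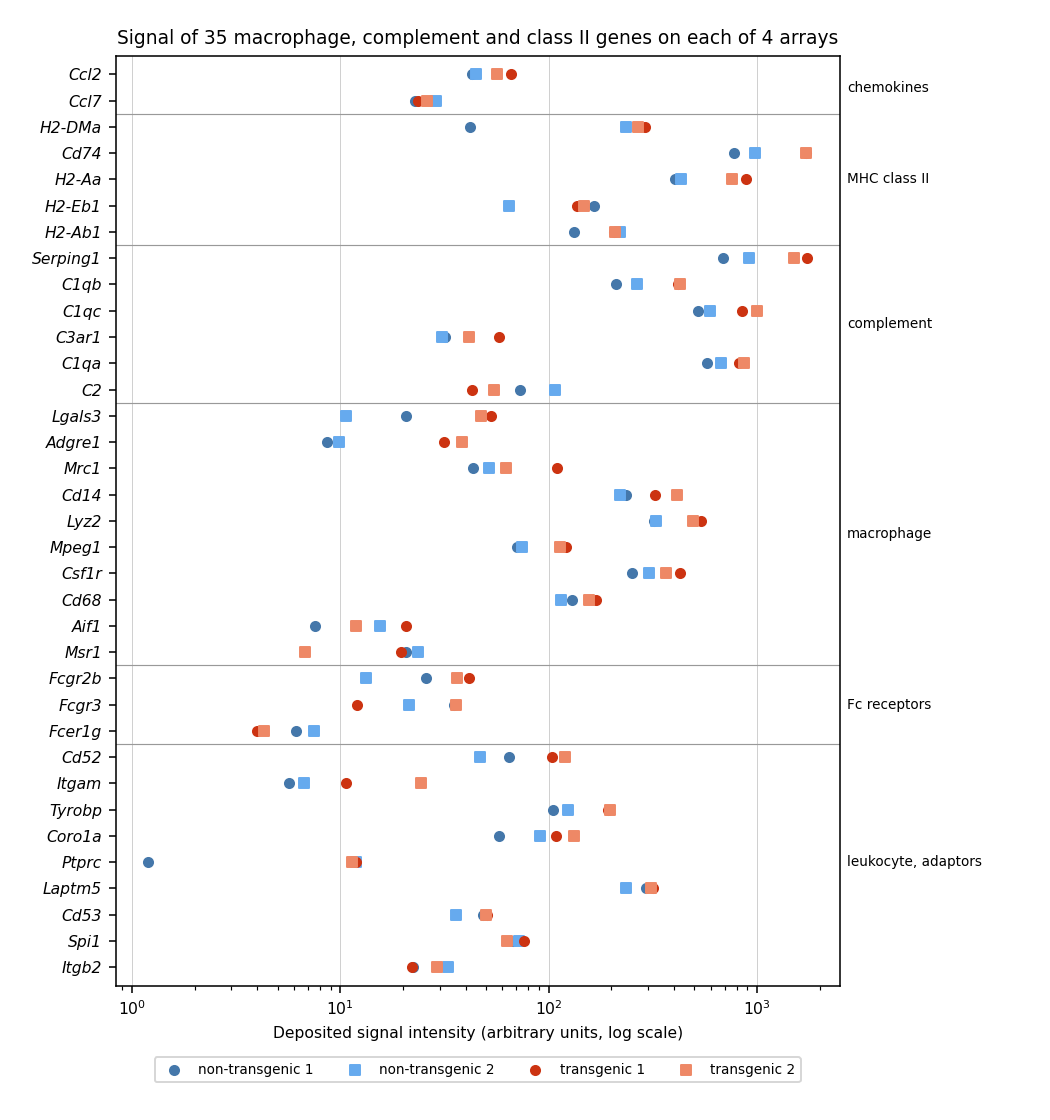
Signal of each of the 35 genes on each array, on a log axis, grouped by role; circles are replicate 1 and squares replicate 2, blue non-transgenic and red transgenic. For 24 genes both red points lie to the right of both blue points, and for C2, Msr1 and Fcer1g both lie to the left.

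Among the genes of the macrophage surface and lysosome, Lyz2 and Cd14 rose and 4 further genes were higher on both transgenic arrays without passing the test. Lyz2 encodes the lysozyme of myeloid cells. It gave 322 and 326 on the non-transgenic arrays against 539 and 496 on the transgenic ones. The groups stood clear of each other, and the log2 change was 0.66 ± 0.11 (SE; limma, adjusted p = 0.0172). A probe set shared by Lyz1 and Lyz2, which cannot tell these related lysozymes apart, gave 363 and 366 against 621 and 590 (log2 change 0.72 ± 0.10, limma adjusted p = 0.0110). A dim second probe set for Lyz2 stayed between 1.8 and 5.5 on all arrays. Averaging it with the first gave a change of 0.22 (limma adjusted p = 0.540), and without transgenic replicate 1 the change of Lyz2 was 0.60 (limma adjusted p = 0.0779).

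Cd14 encodes a co-receptor for bacterial lipopolysaccharide on monocytes and macrophages. It gave 236 and 219.8 on the non-transgenic arrays against 323 and 415 on the transgenic arrays, a log2 change of 0.66 ± 0.15 (limma, adjusted p = 0.0439). The transgenic arrays differed from each other more than the non-transgenic ones did. The call ended without non-transgenic replicate 1 (limma adjusted p = 0.0837), non-transgenic replicate 2 (0.115) or transgenic replicate 2 (0.176), and with no filter on dim probe sets (0.0829).

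Csf1r, the receptor that macrophages need for survival, gave 252 and 302 on the non-transgenic and 426 and 365 on the transgenic arrays. Its log2 change of 0.50 ± 0.14 did not pass the test (limma adjusted p = 0.0867), though the groups did not overlap. A second, dimmer probe set for Csf1r overlapped between the groups (26.7 and 53.0 against 50.2 and 39.0). Mpeg1 encodes perforin-2, a pore-forming protein of macrophages. It gave 70.3 and 74.2 against 121 and 114, a log2 change of 0.64 ± 0.17 (limma adjusted p = 0.0660; 0.0487 after median centring). Cd68, a glycoprotein of the macrophage lysosome, gave 129 and 115 against 168 and 156 (0.38 ± 0.15, adjusted p = 0.179 in limma). Dim second probe sets for Mpeg1 and Cd68 stayed between 1.0 and 4.4 on all arrays. Mrc1, the mannose receptor of tissue macrophages, gave 43.4 and 51.8 against 110.0 and 62.3, so that transgenic replicate 1 stood far above the other transgenic array (0.71 ± 0.28, adjusted p = 0.180 in limma).

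The other 4 macrophage genes were below the filter. Adgre1, which encodes a surface receptor long used to mark mouse macrophages, gave 8.60 and 9.90 on the non-transgenic and 31.5 and 38.3 on the transgenic arrays. Lgals3, the galectin of phagocytes and injured tissue, gave 20.7 and 10.6 against 53.0 and 47.4. These 2 genes had log2 changes of 1.26 and 1.29, and with no filter they did not pass (limma adjusted p = 0.0855 and 0.112). A second probe set for Adgre1 stayed at 0.6 to 8.4, with the transgenic arrays as its lowest and its highest value. Aif1, which encodes the actin-bundling protein Iba1, overlapped between the groups at 7.60 and 15.6 against 20.7 and 11.9. For the scavenger receptor Msr1 the probe set with the higher mean gave 20.6 and 23.5 against 19.5 and 6.80, and the other gave 9.50 and 16.3 against 24.8 and 18.9, so that their changes had opposite signs (-0.55 and 0.51).

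**Figure D2:**
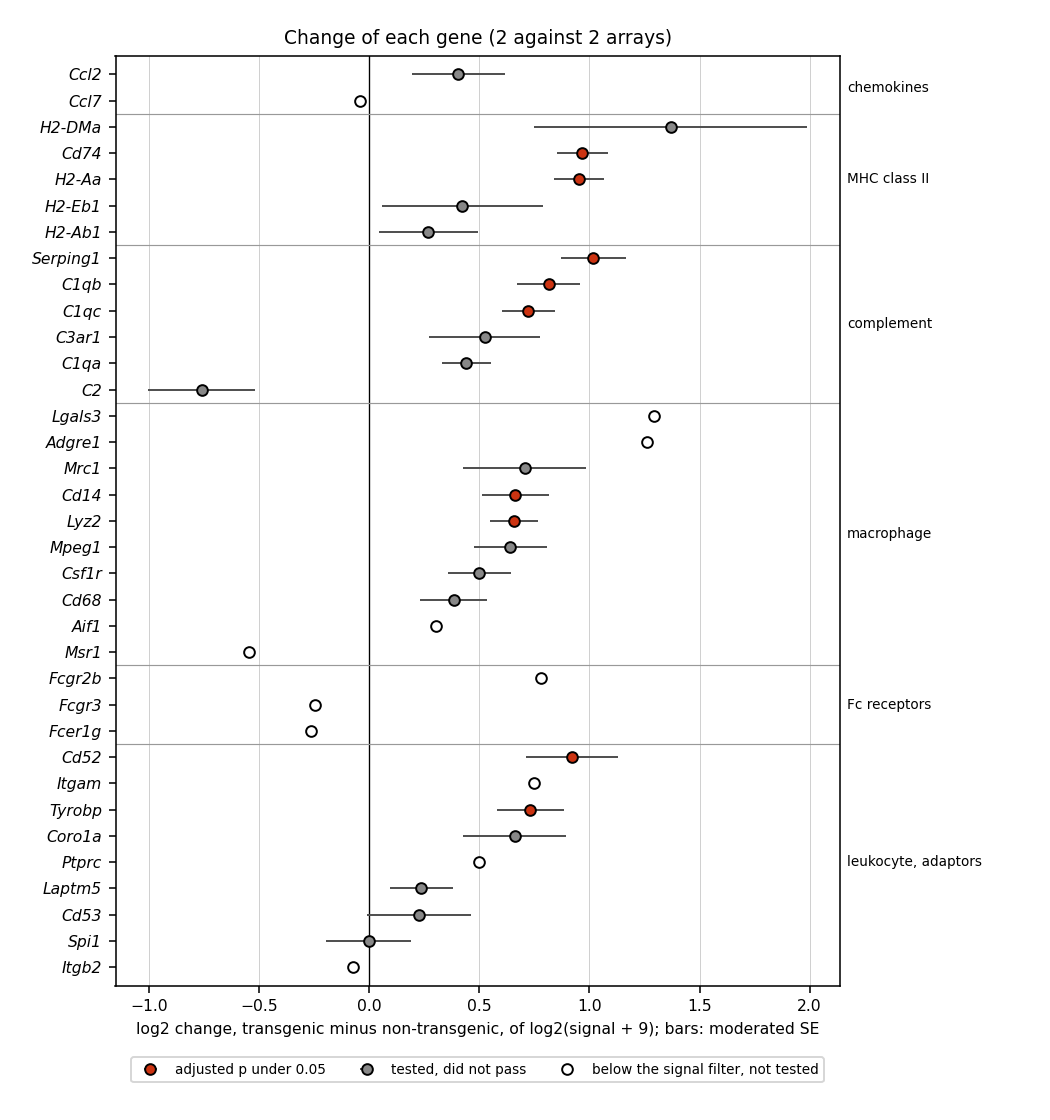
Log2 change of each gene, transgenic minus non-transgenic, with its moderated standard error where it was tested; red points passed the adjusted threshold, grey ones did not, and white ones lay below the signal filter. The 9 red points all lie between 0.66 and 1.02, and only C2, Msr1, Fcgr3, Fcer1g, Itgb2, Ccl7 and Spi1 lie left of 0.

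Of the 9 genes expressed across leukocytes or encoding their signalling partners, 2 rose. Tyrobp encodes DAP12, the adaptor that carries signals from activating receptors of myeloid and natural killer cells. It gave 105 and 124 on the non-transgenic arrays against 192 and 198 on the transgenic ones, a log2 change of 0.73 ± 0.15 (limma, adjusted p = 0.0330). The distance between the groups was several times that within either pair. The call of Tyrobp ended without non-transgenic replicate 1 (limma adjusted p = 0.0907), transgenic replicate 1 (0.109) or transgenic replicate 2 (0.110), and with no filter (0.0651).

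Cd52, a small glycosylphosphatidylinositol-anchored antigen of lymphocytes and monocytes, gave 64.3 and 46.7 against 104 and 120.3 (log2 change 0.92 ± 0.21, adjusted p = 0.0432 in limma). It passed without non-transgenic replicate 1, and did not pass without non-transgenic replicate 2 (limma adjusted p = 0.107), transgenic replicate 1 (0.101), transgenic replicate 2 (0.169) or the filter (0.103). Coro1a, the leukocyte coronin that binds actin, gave 57.9 and 90.6 against 109 and 132 and did not pass (0.66 ± 0.23, adjusted p = 0.143 in limma). Laptm5, a lysosomal membrane protein of blood cells, gave 295 and 237 against 316 and 309.6, and its second probe set 237 and 173 against 291 and 286. Neither passed the test (limma adjusted p = 0.358 and 0.130). The tetraspanin Cd53 gave 48.5 and 35.9 against 50.7 and 50.1, values only just apart (adjusted p = 0.610 in limma).

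Spi1, which encodes PU.1, the transcription factor that macrophages are built on, overlapped between the groups at 67.4 and 72.5 against 76.5 and 63.5. Its log2 change was 0.00 ± 0.19 (limma adjusted p = 0.995), just below 0 as deposited and above 0 after median centring (0.077) and quantile normalization (0.048). The integrin chains Itgam and Itgb2, which pair as the complement receptor Mac-1, and Ptprc, which encodes the pan-leukocyte phosphatase CD45, were below the filter. Itgam gave 5.70 and 6.70 against 10.6 and 24.3, and Itgb2 gave 22.3 and 32.9 against 22.2 and 29.0. The 3 probe sets of Ptprc stayed between 1.0 and 11.9 on all arrays, and each overlapped between the groups.

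All 3 Fc receptor genes were below the filter and none was tested. The inhibitory receptor Fcgr2b gave 25.9 and 13.3 on the non-transgenic and 41.7 and 36.2 on the transgenic arrays, and did not pass without the filter (log2 change 0.78, limma adjusted p = 0.297). The activating receptor Fcgr3 overlapped, at 35 and 21.5 against 12.1 and 36.1. Fcer1g, the signalling chain shared by activating Fc receptors, gave 6.1 and 7.5 against 4.0 and 4.3, with a second probe set at 1.9 to 10.

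In the complement list, C1qb, C1qc and Serping1 rose, and C1qa and C3ar1 were higher on both transgenic arrays without passing, while C2 was lower on both. The 3 C1q genes follow one another on chromosome 4 in the RefSeq annotation of GRCm38.p6, with no other protein-coding gene between them. Their products assemble into 1 molecule. The promoters of C1qb (chr4:136886201-136886450, minus strand) and C1qc (chr4:136892915-136893164, minus strand) are shown because these neighbouring genes rose together. Each run is the 250 bases before the RefSeq start site in GRCm38.p6, 5′ to 3′ on the gene's strand, with matches to GAGGAA, the core recognised by PU.1, in capitals on either strand.
C1qb: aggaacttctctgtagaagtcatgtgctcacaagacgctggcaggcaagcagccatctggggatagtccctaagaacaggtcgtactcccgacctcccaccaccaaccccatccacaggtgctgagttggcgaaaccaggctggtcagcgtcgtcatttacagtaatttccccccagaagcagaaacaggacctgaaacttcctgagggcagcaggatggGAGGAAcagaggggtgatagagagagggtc
C1qc: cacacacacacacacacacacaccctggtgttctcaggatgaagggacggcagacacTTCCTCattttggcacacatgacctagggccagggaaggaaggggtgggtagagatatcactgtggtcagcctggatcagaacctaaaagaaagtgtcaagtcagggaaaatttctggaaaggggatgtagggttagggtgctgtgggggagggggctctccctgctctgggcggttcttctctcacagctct

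C1qb gave 210.2 and 265 on the non-transgenic and 417 and 427 on the transgenic arrays. This was a 1.76-fold difference, with a log2 change of 0.81 ± 0.14 (limma, adjusted p = 0.0191). The call held without any 1 array (adjusted p up to 0.0484 in limma). A dim second probe set for C1qb gave 27.9 and 35.6 against 32.7 and 36.1, and averaged with the first it left a change of 0.46 that did not pass (limma adjusted p = 0.173).

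C1qc gave 519 and 594 against 851 and 999.7, a 1.65-fold difference (0.72 ± 0.12, adjusted p = 0.0172 in limma). The call of C1qc ended without non-transgenic replicate 1 (limma adjusted p = 0.0515) or transgenic replicate 2 (0.05). C1qa gave 575 and 670 against 823 and 869.7, and its smaller change of 0.44 ± 0.11 did not pass (adjusted p = 0.0574 in limma; 0.0393 after median centring and 0.0360 with a stricter filter at the lowest 60%). On all 3 C1q genes non-transgenic replicate 2 exceeded replicate 1, and transgenic replicate 2 exceeded replicate 1.

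Serping1 encodes the C1 inhibitor, which blocks the proteases C1r and C1s. It gave 690.5 and 921 on the non-transgenic and 1742 and 1514.5 on the transgenic arrays, a 2.02-fold rise (log2 change 1.02 ± 0.15, adjusted p = 0.0109 in limma). Both pairs were spread, and the gap between the groups was wider. This call held without any 1 array (limma adjusted p up to 0.0184).

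C3ar1, the receptor for the complement fragment C3a, gave 31.9 and 30.8 against 57.8 and 41.4 (0.52 ± 0.25, adjusted p = 0.257 in limma). C2, the serine protease of the classical pathway convertase, gave 72.7 and 107 against 43.1 and 54.5. Its log2 change of -0.76 ± 0.24 did not pass (limma adjusted p = 0.112, unadjusted p = 0.0162), and its dim second probe set was also lower on both transgenic arrays (9.20 and 12.2 against 7.20 and 5.80). A probe set shared by C4a and C4b, which cannot separate them, overlapped between the groups at 213 and 395 against 330 and 251.

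The liver is the main source of plasma C2, and liver transcripts moved strongly in this comparison. All 12 measured hepatocyte markers, among them albumin (Alb) and apolipoprotein A1 (Apoa1), were lower on both transgenic arrays. Of these 8 fell, 1 did not pass and 3 were below the filter. Over all probe sets 29.0% were lower on both transgenic arrays, and 3.86% of the tested ones were called lower. The summed signal of the hepatocyte markers was 2787 and 5210 on the non-transgenic and 274 and 329.6 on the transgenic arrays. C2 was higher on the non-transgenic array with the higher hepatocyte signal, replicate 2. The same order held for C1qa, C1qb, C1qc, Serping1 and Cd74, which were higher on both transgenic arrays. The part of the hepatocyte signal in the values of C2 was not tested. The 3 measured Kupffer cell markers, Clec4f, Cd5l and Marco (Marco is also a further macrophage gene), were all below the filter, with summed signals of 18.1 to 32.8 on the non-transgenic and 23.6 to 35.5 on the transgenic arrays.

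**Figure D3:**
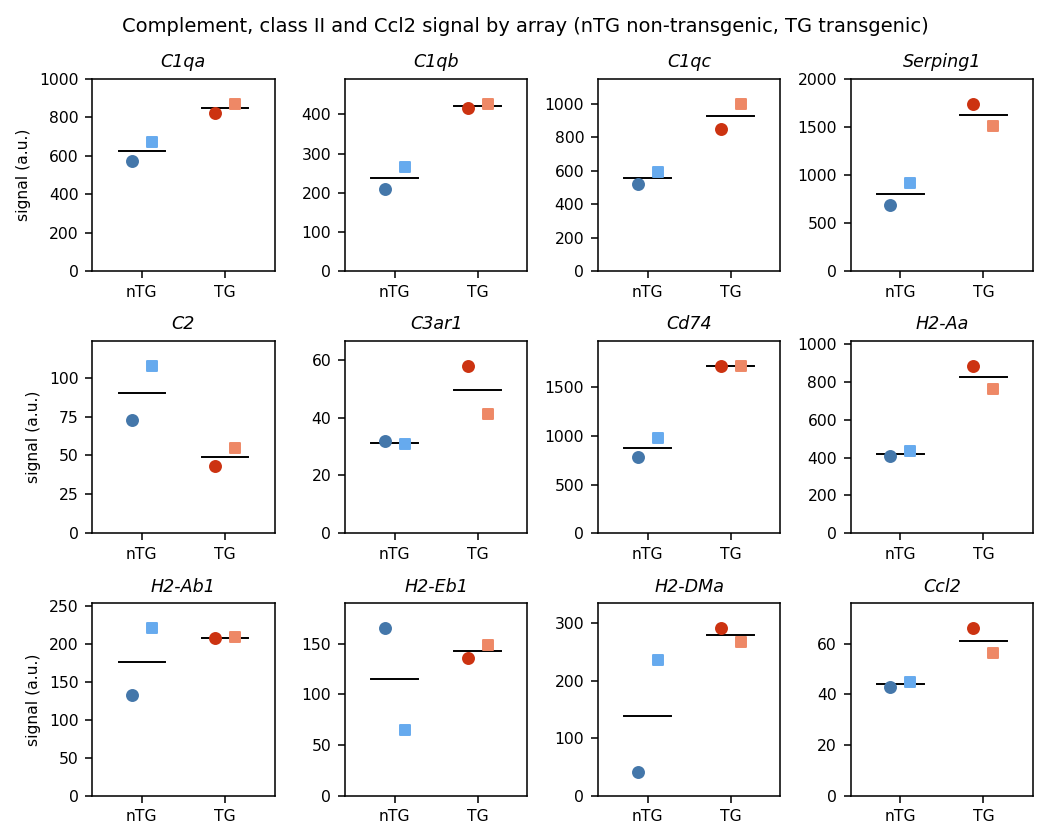
Signal of the complement genes, the class II genes and Ccl2 on each array, each panel with its own axis from 0; circles are replicate 1, squares replicate 2, and black lines the group means. Both transgenic points lie above both non-transgenic ones for C1qa, C1qb, C1qc, Serping1, C3ar1, Cd74, H2-Aa, H2-DMa and Ccl2, and the non-transgenic pair is far apart for H2-DMa, H2-Eb1 and H2-Ab1.

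Of the 5 class II genes Cd74 and H2-Aa rose, and for H2-Ab1, H2-Eb1 and H2-DMa the non-transgenic arrays disagreed. H2-Aa and H2-Eb1 encode the alpha chain of I-A and the beta chain of I-E. H2-Ab1, H2-Aa and H2-Eb1 follow one another on chromosome 17 in the RefSeq annotation of GRCm38.p6. Class II promoters are known for an X box and a Y box, which are bound by a complex that recruits the coactivator Ciita. The promoters of H2-Aa (chr17:34287824-34288073, minus strand) and H2-Eb1 (chr17:34305617-34305866, plus strand) are shown to set a gene that rose beside one that did not pass. Each run is the 250 bases before the RefSeq start in GRCm38.p6, 5′ to 3′ on the gene's strand, with TGATTGG (the core of the Y box) and ACNGATG (part of the X box) in capitals on either strand.
H2-Aa: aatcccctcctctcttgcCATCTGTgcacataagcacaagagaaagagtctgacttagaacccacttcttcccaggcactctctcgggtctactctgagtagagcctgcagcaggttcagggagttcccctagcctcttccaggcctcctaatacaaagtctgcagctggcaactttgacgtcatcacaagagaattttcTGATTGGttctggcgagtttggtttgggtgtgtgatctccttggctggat
H2-Eb1: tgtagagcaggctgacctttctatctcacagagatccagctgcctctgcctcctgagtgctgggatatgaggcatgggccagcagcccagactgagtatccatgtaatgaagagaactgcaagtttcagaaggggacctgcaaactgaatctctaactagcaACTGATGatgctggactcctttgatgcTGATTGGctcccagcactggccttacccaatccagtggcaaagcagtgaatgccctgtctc

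In both promoters the Y box core lay close to the start, 44 to 50 bases before it in H2-Aa and 55 to 61 bases before it in H2-Eb1. The X box letters lay 82 to 88 bases before the start of H2-Eb1, and in H2-Aa they matched only on the other strand, 226 to 232 bases before the start. These are matches of letters in a window and not mapped binding sites. An X box with other letters would not be found by this search, and where the X box of H2-Aa lies was not tested.

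Cd74 gave 778 and 975 on the non-transgenic and 1713 and 1712 on the transgenic arrays. The transgenic arrays were nearly equal, and the rise was 1.96-fold (log2 change 0.97 ± 0.12, adjusted p = 0.00551 in limma). H2-Aa gave 407 and 433 against 882 and 763, a 1.93-fold rise (0.95 ± 0.11, limma adjusted p = 0.00528). Both calls held without any 1 array (limma adjusted p up to 0.00957 for Cd74 and 0.0176 for H2-Aa).

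H2-Ab1, the beta chain that pairs with H2-Aa, gave 133 and 220.1 on the non-transgenic and 207 and 209 on the transgenic arrays. Non-transgenic replicate 2 was thus the highest of all arrays, and the change of 0.27 ± 0.23 did not pass (adjusted p = 0.515 in limma). H2-Eb1 gave 165 and 64.3 against 136 and 149, with non-transgenic replicate 1 the highest and replicate 2 the lowest (0.42 ± 0.37, limma adjusted p = 0.526). H2-DMa, a chain of the peptide loader H2-DM, gave 41.8 and 236 against 291 and 268. Only non-transgenic replicate 1 was low for it, and the change of 1.37 ± 0.62 did not pass (limma adjusted p = 0.231). A dim second probe set for H2-DMa gave 22.4 and 20.1 against 17.0 and 18.8.

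The sign or size of these 3 changes turned on single arrays. For H2-DMa the change was 2.50 without non-transgenic replicate 2 (limma adjusted p = 0.00140) and 0.23 without non-transgenic replicate 1 (0.418). For H2-Eb1 it was 1.05 without non-transgenic replicate 1 (limma adjusted p = 0.0330) and -0.20 without non-transgenic replicate 2 (0.538). For H2-Ab1 it was 0.61 and -0.08, without non-transgenic replicate 2 and replicate 1 respectively (limma adjusted p = 0.0881 and 0.811). Only 0.0403% of tested probe sets had a difference between the non-transgenic arrays as large as that of H2-DMa, 1.33% one as large as that of H2-Eb1, and 6.60% one as large as that of H2-Ab1. For H2-Aa and Cd74 the shares were 73.4% and 27.1%.

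Neither of the 2 chemokine genes passed. Ccl2, the ligand that draws monocytes out of the blood, gave 42.8 and 45.0 on the non-transgenic and 66 and 56.3 on the transgenic arrays (0.40 ± 0.21, adjusted p = 0.292 in limma). Both transgenic arrays were above both non-transgenic ones. Its neighbour on chromosome 11, Ccl7, which acts on the same receptor, was below the filter and overlapped, at 22.9 and 28.9 against 23.5 and 26.1.

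Of 50 further macrophage genes 35 were measured and 24 tested, and Ctss and Irf8 rose, 0 fell and 22 did not pass. Ctss encodes cathepsin S, the protease that cleaves the invariant chain, and gave 153 and 155 against 369.6 and 284 (1.03 ± 0.16, adjusted p = 0.0135 in limma). Irf8, a transcription factor of the monocyte lineage, gave 60.1 and 53.2 against 123 and 114 (0.96 ± 0.18, limma adjusted p = 0.0232). The median change of these 35 further genes was 0.18, with 22 above 0 and 13 below. Both transgenic arrays lay above both non-transgenic arrays for 13 of them and below for 5. Over all probe sets these shares were 20.8% and 29.0%. For this list and those that follow, the shares called among all tested probe sets were 4.07% higher and 3.86% lower.

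Among 10 measured further class II genes 7 were tested, and 1 rose. That was H2-DMb1, the partner chain of H2-DMa, at 43.3 and 78.5 against 129 and 157 (1.16 ± 0.27, limma adjusted p = 0.0439). Ciita, the coactivator of class II transcription, gave 35.9 and 40 against 54.4 and 53.7 and did not pass (adjusted p = 0.282 in limma).

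Of 21 measured further complement genes 10 were tested, and C8g and Cd59a fell. Cd59a, a membrane inhibitor of the terminal complement pore, gave 813 and 823 against 598 and 516 (-0.55 ± 0.11, limma adjusted p = 0.0282). C8g, a subunit of that pore made in the liver, gave 85.9 and 90.6 against 42.1 and 39.3 (-0.97 ± 0.19, limma adjusted p = 0.0298). The median change of this list was -0.37, with 17 of its 21 genes below 0, and 11 of the 21 were below the filter. Over all 12422 probe sets 7065 changes were below 0, with a median of -0.05. The part of the lower hepatocyte signal given above in the values of this list was not tested. C1ra, a protease of the C1 complex that C1q activates, gave 188 and 176 against 173 and 165 (adjusted p = 0.695 in limma).

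Of 30 measured further chemokines, receptors and growth factors 8 were tested, and 0 passed by the brightest probe set of each (limma; 4 at an unadjusted p under 0.05: Ccl9, Csf1, Cxcl1 and Cxcl12). The probe sets of Cxcl12, a chemokine of stromal cells, disagreed. The brightest gave 574 and 610.2 against 729.6 and 745 (0.31 ± 0.10, limma adjusted p = 0.105). The next gave 183 and 131 against 180.2 and 184, overlapped and did not pass (0.22 ± 0.18, limma adjusted p = 0.501). The dimmest gave 74.3 and 63.1 against 281 and 229 and passed (1.76 ± 0.17, limma adjusted p = 0.00274). Ccl8, another ligand of monocytes, was below the filter at 11.2 and 12.5 against 55.2 and 58.7, and Csf1, the growth factor that Csf1r binds, gave 338 and 363 against 213 and 310.4 (adjusted p = 0.206 in limma).

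None of the tested markers of other leukocytes rose. Of the 10 measured T cell markers 2 were tested and neither passed, and all of the measured chains of the CD3 complex, Cd3d, Cd3e and Cd3g, were below the filter. Of 9 measured B cell markers 6 were tested and 1 fell. That was Ighm, the heavy chain of IgM, at 270.4 and 321 against 149 and 146 (-0.96 ± 0.14, limma adjusted p = 0.0119). The summed B cell signal was 568 and 772 on the non-transgenic and 376 and 384 on the transgenic arrays. Of 10 neutrophil markers 5 were tested and none passed, and the same held for 3 of 8 mast cell and 5 of 6 dendritic cell markers. All 6 measured natural killer cell markers were below the filter. Summed signals were 501 and 540 against 321 and 438 for neutrophils, 242 and 248 against 199 and 217 for mast cells, and 388 and 403 against 317 and 393 for dendritic cells. They were 287 and 219.7 against 295 and 185 for T cells and 113 and 80.6 against 55.3 and 104 for natural killer cells.

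Fibroblast markers rose in the same comparison, in 8 of 9 cases. Among them Postn, a matrix protein of activated fibroblasts, gave 111 and 110.4 against 519 and 449, the largest change of the list. The remaining marker, Pdgfra, was lower on both transgenic arrays, at 523 and 391 against 332 and 298. It did not pass (-0.51 ± 0.16, limma adjusted p = 0.106). The summed signal of the fibroblast markers was 6146 and 5884 on the non-transgenic and 9596 and 9200 on the transgenic arrays. Of 8 endothelial markers Eng rose and Tie1 fell, and 6 of the 8 changes were below 0 (median -0.11). The summed endothelial signals were 3389 and 3324 against 3620.5 and 3596. Eng, the brightest of these markers, alone gave 1331 and 1194 against 1741 and 1780. The part of these cells in the values of genes such as Serping1 and Lgals3, which are not restricted to macrophages, was not tested.

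**Figure D4:**
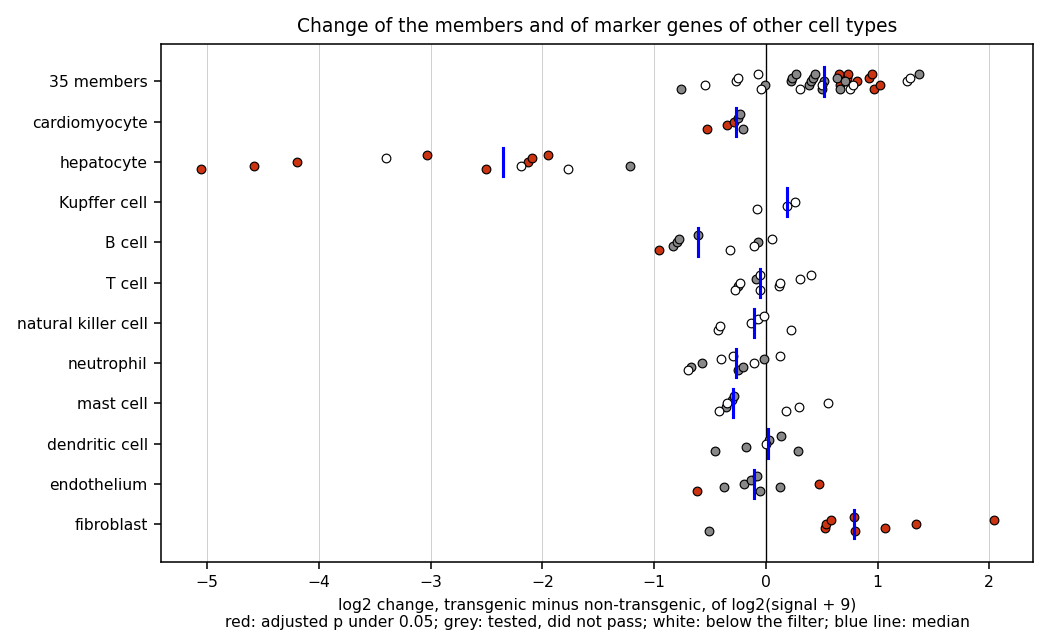
Log2 change of each measured gene in the list of 35 and in lists of markers of other cells; red points passed the adjusted threshold, grey ones were tested and did not pass, white ones were below the filter, and blue lines are list medians. The median is 0.52 for the 35 genes, 0.79 for fibroblast markers, -0.60 for B cell markers and -2.35 for hepatocyte markers.

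Promoter sequences were found for 21 of the 37 genes in the RefSeq table of GRCm38.p6. The PU.1 core GAGGAA, on either strand of the 250 bases before the start, was present in 10 of them (47.6%), namely Aif1, C1qb, C1qc, Cd53, Cd68, Fcgr3, Itgam, Laptm5, Mrc1 and Ptprc. It was present in 23.3% of all promoters of this length, or at 25.9% of all genes with 1 or more promoters in the table. Of these 10 genes C1qb and C1qc rose. The Y box core was present in 3 of the 21 genes (14.3%; Cd68, H2-Aa and H2-Eb1), in 7.23% of all promoters and at 8.38% of all genes. The X box letters were present in 4 (19%; Coro1a, Fcgr2b, H2-Aa and H2-Eb1), in 8.31% of all promoters and at 9.45% of all genes. The CArG box, which SRF binds, was matched in 1 gene, Mpeg1 (4.76%), in 1.47% of all promoters and at 1.62% of all genes. That match lay 222 to 231 bases before the start of Mpeg1. No match overlapped one to another motif in these genes.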

How the data were processed

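RNA from cardiac ventricle was purified and labelled with biotin for Affymetrix arrays, as stated in the labels. The deposited values are signal intensities on a linear scale, 1 for each probe set on each array, as read from the values. How the authors computed and scaled them was not given in the sources used. The table holds 12488 probe sets, of which 66 controls were dropped. Of the rest 10833 had 1 gene symbol in the platform annotation, 396 several and 1193 none listed. All 35 symbols matched RefSeq.

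The fit used log2(value + 9), where 9 is the rounded 20th percentile of positive values, without the lowest 40% by mean. limma 3.58.1 (R 4.3.3) gave two-sided tests through lmFit and eBayes with a trend on signal, and p-values were adjusted by Benjamini-Hochberg over 7453 probe sets. The prior had 5.05 degrees of freedom beside 2 residual ones. The fit was tested on simulated data drawn from its own variance model, with changes larger than those of the called members. Its performance at their size was not tested. The number of arrays limits the precision.

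Members, lists, motifs and tests were chosen with earlier results of these data known. All measured members were named, with the called genes of further lists (at most 6 a list) and the brightest of the marker lists (at most 4). Ciita, C1ra, the chemokine-list genes, Postn, Pdgfra and the CD3 chains were named after their values were seen. Alternatives were other pseudocounts, scalings, filters, variance models and probe set rules, a replicate block, and fits without single arrays.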

Additional observations from a re-analysis of the deposited data

How the results depend on the processing

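Under the alternatives planned for these results, the count of the 35 genes called higher stayed within 1.5 times 9 in all settings except eBayes without a trend (0), the ordinary two-sample test (0) and the fit without transgenic replicate 2; leaving out single arrays gave 5 to 8. No setting called any of them lower (limma; 1 at an unadjusted p under 0.05 in the fit reported). Their median log2 change was 0.66 with the pseudocount halved to 4.5, 0.43 with it raised to 36, 0.63 after quantile normalization, 0.43 with the mean over each gene's probe sets, and 0.46 to 0.61 when single arrays were left out. Over all tested probe sets the counts higher and lower were 172 and 157 with no filter, 44 and 34 without a trend, 0 and 0 in the ordinary test (1175 with an unadjusted p under 0.05), and 125 to 232 and 158 to 191 without single arrays. The change of Spi1 was 0.077 after median centring and 0.048 after quantile normalization, and -0.12 to 0.12 without single arrays. That of H2-Ab1 was -0.078 to 0.61 and that of H2-Eb1 -0.20 to 1.05 without single arrays. With a replicate block 10 genes were called higher, C1qa among them (limma adjusted p = 0.0408). The labels give no origin for the numbers, and same-numbered arrays did not deviate together (correlation -0.06 over tested probe sets), so the block is only an alternative. The causes of these differences were not tested. Genes below the filter and the dim second probe sets are limited by signal over background.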
